A study of Mus musculus with 2 samples.

Results

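The 10 genes described here, Fkbp5, Tsc22d3, Sgk1, Zbtb16, Pdk4, Mt1, Mt2, Ddit4, Klf9 and Cebpd, are known targets that glucocorticoid hormone induces in many tissues. They were taken by symbol from 23282 rows of read counts, and all 10 had a row. The counts come from dorsal root ganglia, the clusters of sensory neuron cell bodies beside the spinal cord, of wild-type (WT) mice. The tissue is labelled dorsal root ganglia and the cell type neurons. The AEW group received acetone, ether and water, a chemical model of dry skin and itch, on 5 days in a row, and the control group received water. Ganglia were taken on day 6, and each group's RNA was a pool from 6 mice. Strain, sex, age, the treated skin site and any purification of neurons were not given in the sources used here. Each group is 1 library, so no difference below has a replicate check, and differences between the pools, dissections or library preparations cannot be told apart from the treatment.

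Glucocorticoids bind the glucocorticoid receptor Nr3c1, which is held in the cytoplasm by heat shock protein chaperones and their cochaperones. The receptor with bound hormone enters the nucleus and activates genes near a palindromic DNA element, the glucocorticoid response element. In mice the hormone is corticosterone, whose blood level follows the time of day and rises with stress. Each of the 10 genes also answers to other signals, such as metals for the metallothioneins and hypoxia or amino acid shortage for Ddit4.

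The upstream sequences of Sgk1, Mt1 and Mt2 are shown because they are the windows of these genes in which the searched letters of a glucocorticoid response element were found or, for Mt2, because it is the neighbour that lacks them. RefSeq promoter windows on GRCm38.p6 were matched for 8 of the 10 genes, with 15 windows in all, and the 250 bases before each annotated start were searched on both strands. The element was searched as the core GNACANNNTGTNC and as the full palindrome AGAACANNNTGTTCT, and the full form contains the core. The metal response element, the binding site of the zinc sensor Mtf1, was searched as TGCACNC and TGCGCNC. Capitals mark matches to either the glucocorticoid core or a metal element, and sequences run from 5′ to 3′ along the plus strand. The Sgk1 window, one of 6 for this gene, is chr10:21993640-21993889, the Mt1 window chr8:94178839-94179088 and the Mt2 window chr8:94172368-94172617.
Sgk1: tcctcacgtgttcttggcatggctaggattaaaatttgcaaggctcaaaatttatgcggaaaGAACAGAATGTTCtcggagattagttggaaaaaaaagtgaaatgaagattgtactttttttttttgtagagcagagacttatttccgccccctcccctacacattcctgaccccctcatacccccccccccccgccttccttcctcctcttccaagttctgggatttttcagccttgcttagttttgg
Mt1: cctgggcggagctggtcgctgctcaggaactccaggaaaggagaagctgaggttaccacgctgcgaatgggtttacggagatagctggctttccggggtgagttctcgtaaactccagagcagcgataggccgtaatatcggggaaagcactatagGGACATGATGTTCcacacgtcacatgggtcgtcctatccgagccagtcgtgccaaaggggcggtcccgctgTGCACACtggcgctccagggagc
Mt2: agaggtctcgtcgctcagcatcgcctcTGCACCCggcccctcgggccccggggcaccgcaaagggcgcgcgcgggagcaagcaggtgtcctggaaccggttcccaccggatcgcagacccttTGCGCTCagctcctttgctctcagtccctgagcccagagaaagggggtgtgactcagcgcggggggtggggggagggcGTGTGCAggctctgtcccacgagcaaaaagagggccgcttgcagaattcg

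The glucocorticoid core matched in 2 of the 15 windows, 1 of Sgk1 and 1 of Mt1, against 0.387% of 32851 windows of all genes. In Sgk1 it lay 188 to 176 bases before the annotated start and there also matched the full palindrome, which only 3 windows of all genes held. In Mt1 it lay 94 to 82 bases before the start. A metal element matched 1 time in Mt1, 3 times in Mt2 and 1 time in Ddit4, and 21.4% of all windows held at least 1. These matches describe letters in short windows and bear on no binding in these ganglia. The windows end at RefSeq starts, which can differ from the GENCODE gene starts given below. The Mt2 window ends at 94172617, before the gene start at 94172664, and the Mt1 window ends at 94179088, after 94179082. Bases outside the windows were not searched, so the matches do not compare whole promoters of Mt1 and Mt2.

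In the AEW library 4 of the 10 genes were called lower, 0 were called higher and 6 were called neither. A gene was called when its ratio of scaled CPM (the count divided by the scaled library size, times 1000000) between the AEW and control library was at least 1.5-fold and the exact 95% counting interval of the ratio excluded 1. Among 14854 measured genes, those with a summed count of at least 20, 14.9% were called lower and 17.3% higher. The genes called lower were Mt1, Tsc22d3, Cebpd and Zbtb16. The interval lay below 1 for 8 of the 10 genes and for 28.9% of all measured genes, and above 1 for 0 of the 10 genes and for 32% of all measured genes. The median log2 ratio was -0.50 for the 10 genes and 0.03 over all measured genes, whose quartiles were -0.39 and 0.43. The interval lay wholly beyond 1.5-fold for 2 of the 10 genes, Mt1 and Tsc22d3, and in all measured genes for 7.21% on the lower and 8.93% on the higher side. With total count scaling the same 4 genes were called lower, beside 12.3% of all measured genes lower and 20.4% higher. If genes also had to lie more than 3 scaled deviations from others of like expression, 0 of the 10 stayed called, beside 0.646% of all measured genes lower and 2.22% higher.

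**Figure D1:**
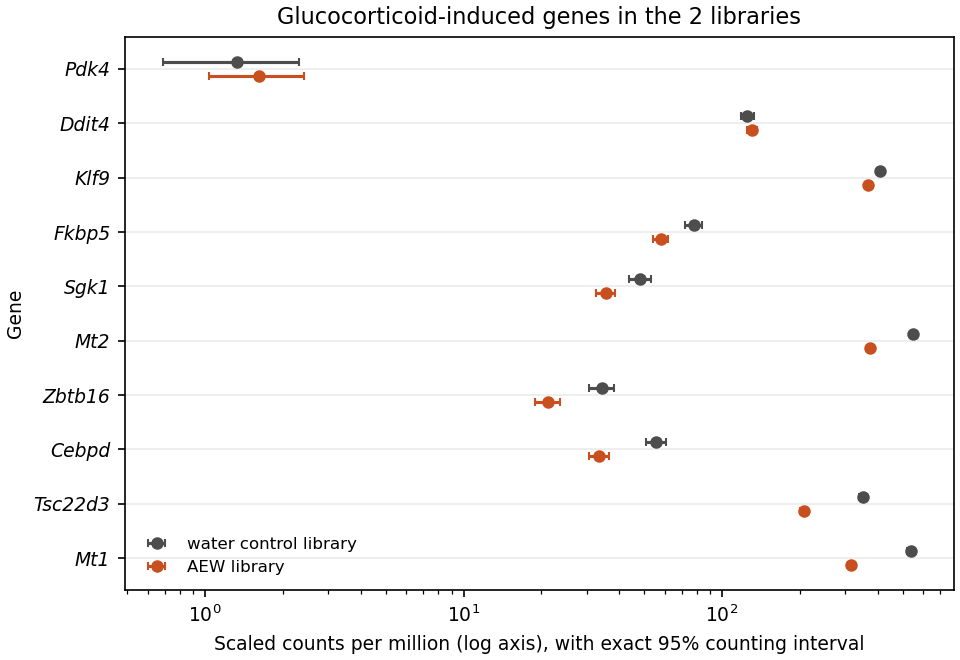
Scaled CPM of each gene (log axis) in the water control library (grey) and the AEW library (orange), with exact 95% counting intervals and genes ordered by their ratio. The orange point lies left of the grey one for 8 genes, and the 2 intervals overlap for Pdk4 and Ddit4.

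The chaperone-linked member is Fkbp5, a cochaperone that lowers the receptor's affinity for hormone and is induced by the receptor as feedback (ENSMUSG00000024222.17, mm10 chromosome 17, 28399094 to 28517527, minus strand). Fkbp5 had 703 control and 861 AEW counts, or 77.6 and 58.1 CPM. Its ratio was 0.75 (95% counting interval 0.68 to 0.83), below 1 but within 1.5-fold.

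Tsc22d3 encodes GILZ, a leucine zipper protein that mediates anti-inflammatory effects of glucocorticoids (ENSMUSG00000031431.13, chromosome X, 140539528 to 140600659, minus strand). Tsc22d3 had 3183 control and 3088 AEW counts, or 352 and 208 CPM. The AEW library was thus lower by 1.69-fold (1.61 to 1.77), and this interval lay wholly beyond 1.5-fold. Its ratio stood at percentile 11.9 among all measured genes, beside 11.8 for Mt1.

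The transcription factors divided. Cebpd, a basic leucine zipper factor of the acute-phase response and of fat cell differentiation (ENSMUSG00000071637.5, chromosome 16, 15887286 to 15891031, plus strand), had 504 and 497 counts, or 55.7 and 33.5 CPM. Cebpd was 1.66-fold lower (1.46 to 1.88). Its exons overlap those of Spidr on the opposite strand, which had 66 and 74 counts, and whether strand was used in counting was not given in the sources used here.

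Zbtb16, the zinc finger repressor PLZF (ENSMUSG00000066687.5, chromosome 9, 48654297 to 48836222, minus strand), had 311 control and 314 AEW counts, or 34.3 and 21.2 CPM. Zbtb16 was 1.62-fold lower (1.38 to 1.90). Klf9, a Krüppel-like factor induced by glucocorticoid and thyroid hormone (ENSMUSG00000033863.2, chromosome 19, 23141226 to 23168134, plus strand), had 3717 and 5457 counts, or 411 and 368 CPM. With a ratio of 0.90 (0.86 to 0.94), Klf9 was within 1.5-fold, and its log2 ratio of -0.16 became 0.08 after correction for the GC content of the last 500 bases of transcripts.

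The metallothioneins are small cysteine-rich proteins that bind zinc and copper, and Mt2 and Mt1 lie 5514 bases apart on the plus strand of chromosome 8. Mt1 (ENSMUSG00000031765.8, 94179082 to 94180327) had 4860 control and 4700 AEW counts, or 537 and 317 CPM, and was 1.69-fold lower (1.63 to 1.76). Mt2 (ENSMUSG00000031762.7, 94172664 to 94173568) had 4966 and 5523 counts, or 548 and 373 CPM. Exons of Mt2 overlap those of Gm45774 on the opposite strand, which had no row of counts, so the limit on strand given for Cebpd holds here too.

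Mt2 was 1.47-fold lower (1.42 to 1.53), just under the threshold. It was called lower under upper quartile scaling and after either GC correction. Mt1 had the lower ratio of the pair, and that of Mt2 exceeded it by 1.15 times (1.09 to 1.22), a comparison within the libraries that does not depend on their scaling. Mt1 and Mt2 are close relatives, and the handling of reads that match both was not given in the sources used here, so reads could be split between them.

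Among the kinases and metabolic regulators, Sgk1, a kinase that raises the surface amount of ion channels and transporters (ENSMUSG00000019970.15, chromosome 10, 21882184 to 21999903, plus strand), had 437 and 527 counts, or 48.3 and 35.6 CPM. Its ratio was 0.74 (0.65 to 0.84). The counts do not tell its alternative starts apart, so the window printed above cannot be tied to a transcript.

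Ddit4, also named REDD1, an inhibitor of the growth kinase complex mTORC1 (ENSMUSG00000020108.4, minus strand of chromosome 10, 59949669 to 59951834), had 1134 and 1933 counts, or 125 and 130.4 CPM. Its ratio of 1.04 (0.97 to 1.12) differed from 1 by less than counting error, and its log2 ratio of 0.06 became -0.12 and -0.05 under the GC corrections. Pdk4, which blocks the entry of pyruvate into the mitochondrial citric acid cycle (ENSMUSG00000019577.6, chromosome 6, 5483351 to 5496309, minus strand), had only 12 and 24 counts. At 1.33 and 1.62 CPM, the ratio of 1.22 had an interval of 0.59 to 2.68, so a difference of the size seen in Mt1 was not detectable at this depth.

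**Figure D2:**
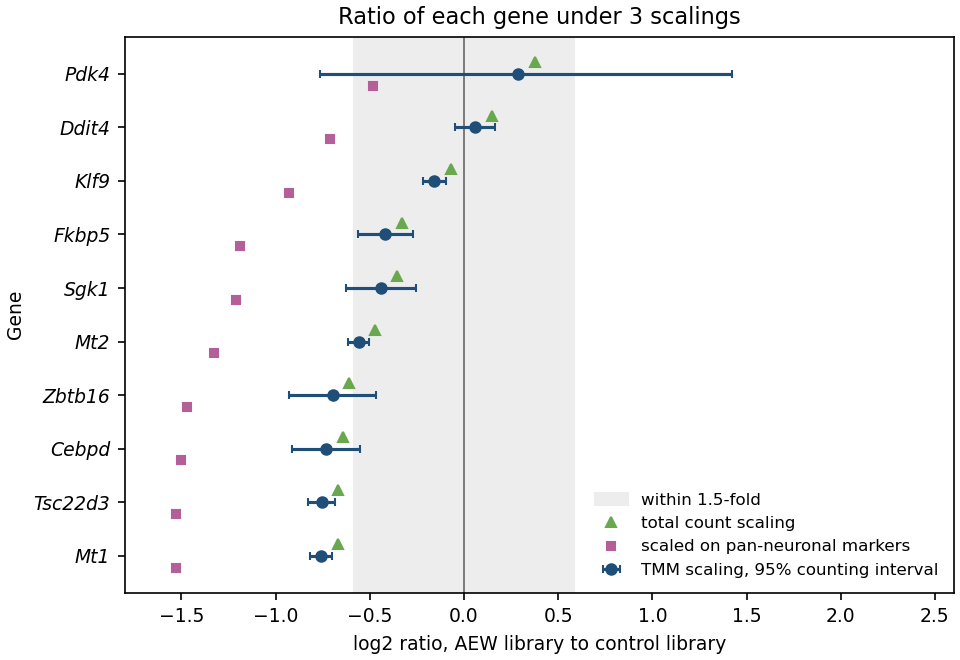
Log2 ratio of the AEW to the control library for each gene under TMM scaling (blue, with 95% counting intervals), total count scaling (green triangles) and scaling on pan-neuronal markers (purple squares). Under TMM and total counts Mt1, Tsc22d3, Cebpd and Zbtb16 lie left of the grey band of 1.5-fold, and under pan-neuronal scaling 9 of 10 genes do.

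Ratios of members were also set against each other, which cancels the scaling of the libraries. Of 45 pairs, 24 had a ratio of ratios whose 95% interval excluded 1. Ddit4 and Klf9 lay above the other members except Pdk4, and Ddit4 exceeded Mt1 by 1.76 times (1.62 to 1.92) and Klf9 exceeded Mt1 by 1.52 times (1.43 to 1.61). Fkbp5 and Sgk1 came next, and the ratio between them was 1.02 (0.86 to 1.20). This order has no clear steps. Mt2 could not be told apart from Fkbp5 (1.10, 0.99 to 1.23, Fkbp5 higher) or Sgk1 (1.08, 0.95 to 1.24, Sgk1 higher). Nor could Mt2 be told apart from Zbtb16 or Cebpd, or Sgk1 from Zbtb16 (1.19, 0.97 to 1.47, Sgk1 higher). Mt1, Tsc22d3, Cebpd and Zbtb16 could not be told apart, with intervals that included 1 in each pair of these genes. For Pdk4 every interval included 1.

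**Figure D3:**
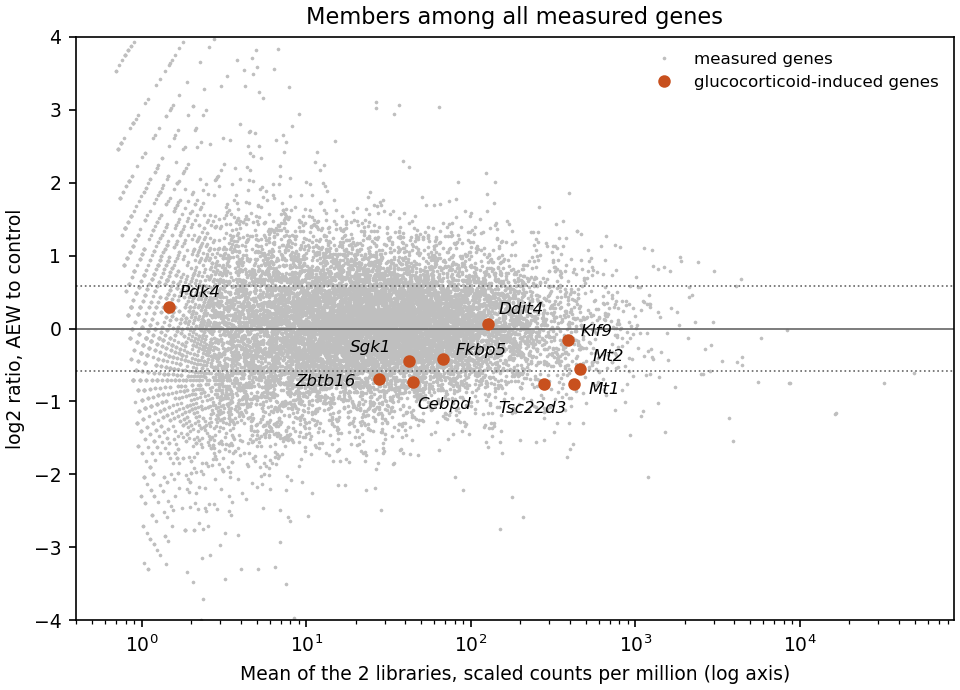
Log2 ratio of the AEW to the control library against mean scaled CPM (log axis) for measured genes (grey) and the 10 glucocorticoid-induced genes (orange). Dotted lines mark 1.5-fold, 241 genes beyond a log2 ratio of 4 or with a count of 0 in a library are not drawn, and the 10 genes lie inside the cloud of other genes at log2 ratios of -0.76 to 0.29.

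Further known glucocorticoid targets, 30 genes listed with earlier results of these data known, had a median log2 ratio of -0.52 over 28 measured. Of these, 10 were called lower, 1 higher and 17 neither, beside 14.9% of all measured genes lower and 17.3% higher, and 25 had a ratio below 1, against 47.8% of all measured genes. Lcn2, the iron-scavenging protein lipocalin 2, was 3.60-fold lower (3.004 to 4.32) and is also a neutrophil marker. Cdkn1c, a cell cycle inhibitor, had 652 control and 443 AEW counts and was 2.41-fold lower (2.13 to 2.72). Il1r2, a decoy receptor for interleukin 1, had 16 and 53 counts and a ratio of 2.02 (1.14 to 3.79). The clock gene Per1, chosen after its values were seen, was 1.95-fold lower (1.66 to 2.30) at 322 and 270 counts. Dusp1, a phosphatase of MAP kinases, and Nfkbia, the inhibitor of NF-kappaB, likewise chosen afterwards, had ratios of 1.11 (0.97 to 1.28), below 1 under pan-neuronal scaling, and 0.89 (0.84 to 0.95).

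The receptor Nr3c1 had 568 control and 773 AEW counts, or 62.7 and 52.2 CPM, and a ratio of 0.83 (0.75 to 0.93). The mineralocorticoid receptor Nr3c2, which also binds corticosterone, had 1 and 0 counts, both under the floor of 3 counts, so no fold is given. Hsd11b1, which regenerates active hormone inside cells, was 1.83-fold lower (1.03 to 3.28) at 28 and 25 counts. H6pd, which supplies the cofactor of Hsd11b1, was 1.88-fold lower (1.48 to 2.39) at 153 and 133 counts, and Abcb1b, a drug and steroid exporter, 1.93-fold lower (1.19 to 3.17). Hsd11b2, which inactivates the hormone, had 2 and 12 counts and was not measured. Of 7 measured genes of this list 3 were called lower and 0 higher, beside 14.9% and 17.3% of all measured genes, with a median log2 ratio of -0.71.

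Of 22 chaperones and coregulators of the receptor, 4 were called higher, 2 lower and 16 neither, near the shares over all measured genes of 17.3% higher and 14.9% lower. Their median log2 ratio was 0.16, or -0.61 under pan-neuronal scaling. Fkbp4, the cochaperone that binds the same site of Hsp90 as Fkbp5, had 1597 control and 5896 AEW counts and was 2.26-fold higher (2.13 to 2.39). Stip1, which links Hsp70 to Hsp90, was 2.10-fold higher (1.93 to 2.29). Ep300, a histone acetyltransferase, was 1.77-fold lower (1.56 to 2.01) and Nrip1, a corepressor of nuclear receptors, 1.61-fold lower (1.24 to 2.09). Fkbp4 exceeded Fkbp5 by 3.01 times (2.68 to 3.38) in the ratio of ratios, the widest gap between a member and a close relative among 15 such pairs.

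In 10 of those 15 pairs the relative had the higher ratio with an interval that excluded 1, and in 1 pair the lower. These pairs are not independent, since Tsc22d3, Cebpd, Pdk4 and Mt3 recur among them. The relatives had a median log2 ratio of 0.13 over 14 measured, near 0.03 for all measured genes and above -0.50 for the 10 members. The pair counts therefore do not set the relatives apart from other genes. Mt3, the metallothionein of the nervous system, had 519 and 1425 counts and was 1.68-fold higher (1.52 to 1.86), although its log2 ratio of 0.75 became -0.03 when scaled on pan-neuronal markers. Set against Mt1 its ratio was 2.84 times higher (2.55 to 3.17) and against Mt2 2.47 times (2.21 to 2.75). Tsc22d1, Tsc22d2 and Tsc22d4 had ratios of 0.88 (0.84 to 0.92), 0.78 (0.67 to 0.92) and 1.08 (0.96 to 1.21). Each of these lay above Tsc22d3, by 1.48, 1.32 and 1.82 times, and under pan-neuronal scaling the log2 ratio of Tsc22d4 was -0.66.

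Klf13, the nearest relative of Klf9, had a ratio of 1.27 (1.19 to 1.37) and Sgk3 of 1.12 (0.88 to 1.42), both below 1 under pan-neuronal scaling. Cebpa was 1.69-fold lower (1.34 to 2.13), with a ratio that could not be told from that of Cebpd, whereas Cebpb had a ratio of 1.36 (0.999 to 1.88), below 1 under pan-neuronal scaling, and Cebpg of 0.97 (0.85 to 1.11). Ddit4l, the relative of Ddit4, had a ratio of 0.79 (0.61 to 1.03). Pdk2 was 1.64-fold lower (1.43 to 1.87) at 449 counts in each library, while Pdk1 and Pdk3 had ratios of 1.26 (1.02 to 1.57) and 1.28 (1.09 to 1.495), again below 1 under pan-neuronal scaling. Sgk2, with 2 and 9 counts, was not measured.

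Genes that answer to the other known inducers of the members, and genes linked to Sgk1, were listed as well. Their counts are small and are to be read against the 17.3% of all measured genes called higher and 14.9% called lower. Of 10 zinc and metal response genes 2 were called higher, 0 lower and 8 neither, with Slc39a14, a zinc importer, 2.62-fold higher (1.45 to 5.07) and Gclc, an enzyme of glutathione synthesis, 1.67-fold higher (1.43 to 1.96), and of these Gclc had a log2 ratio below 0 under pan-neuronal scaling. Of 16 hypoxia-induced genes 1 was called higher, Car9, at 4 and 37 counts, and 2 lower, with Adm 2.20-fold lower (1.80 to 2.69) and Egln3 1.59-fold lower (1.18 to 2.13). Of 13 measured genes of the integrated stress response, which answers to amino acid shortage, 2 were called higher, Shmt2 and Chac1, whose ratios were below 1 under pan-neuronal scaling, and 3 lower, led by the cystine transporter Slc7a11 at 2.30-fold (1.92 to 2.77). Of 16 fasting and PPAR or FOXO targets 0 were called higher and 2 lower, the muscle ubiquitin ligases Trim63 at 9.82-fold (5.54 to 18.7) and Fbxo32 at 1.53-fold (1.30 to 1.80). Of 7 measured genes linked to Sgk1 in ion transport 2 were called higher and 1 lower. They were the ubiquitin ligase Nedd4l at 2.005-fold (1.86 to 2.16), the scaffold Slc9a3r2 at 1.95-fold (1.77 to 2.15), and Ndrg2, a substrate of Sgk1, 1.53-fold lower (1.47 to 1.59).

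Upstream of the hormone, 6 of 11 peptides and receptors of the stress axis were measured, of which 2 were called lower and 0 higher. Crh, which starts the hormonal stress response in the brain, had 144 control and 15 AEW counts and was 15.7-fold lower (9.22 to 28.8). Its binding protein Crhbp had 16 and 5 counts. Inflammatory genes that glucocorticoids are known to repress were called lower in 6 of 10 measured, higher in 1 and neither in 3 (median log2 ratio -0.87). Both lists are to be read against 14.9% of all measured genes called lower and 17.3% higher, with a median log2 ratio of 0.03. Mmp9, among the 6 called lower, is also in the list of neutrophil markers. Ccl5 was 11.4-fold lower (6.91 to 19.8), the adhesion molecule Icam1 2.54-fold lower (1.84 to 3.53), and Cxcl10, at 12 and 49 counts, had a ratio of 2.49 (1.31 to 5.15). Il6, Tnf, Ptgs2 and Nos2 had at most 4 counts in either library.

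**Figure D4:**
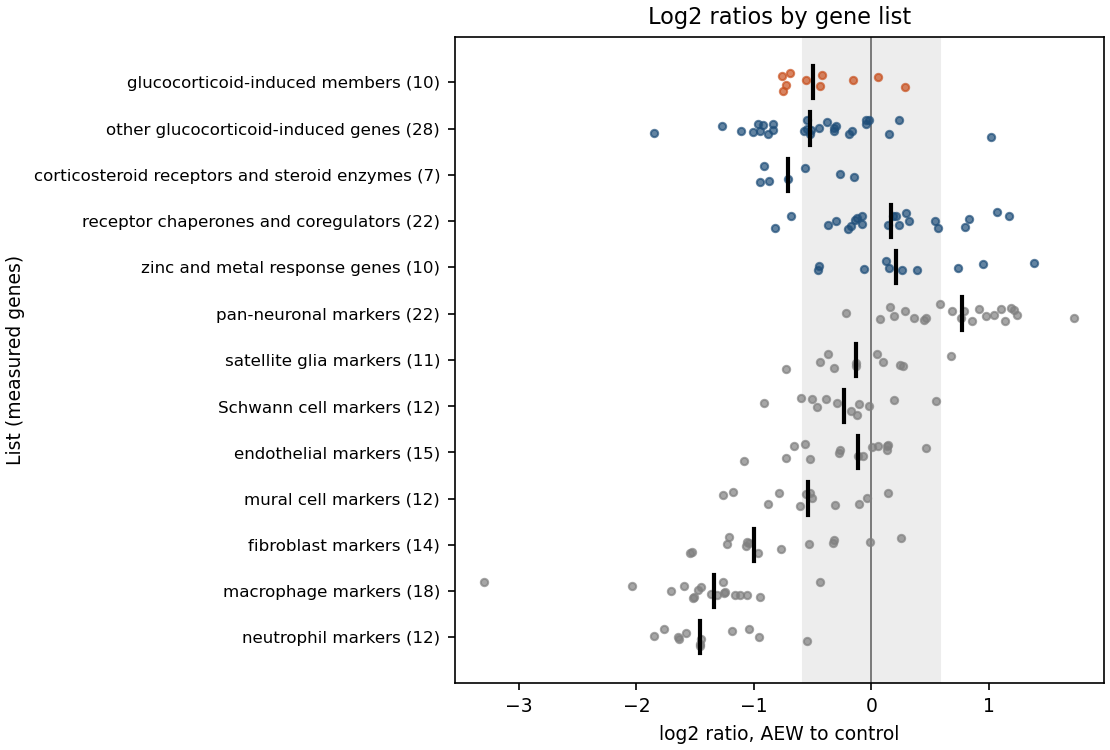
Log2 ratio of the AEW to the control library for each measured gene (points) of the 10 glucocorticoid-induced genes (orange), linked lists (blue) and cell type markers (grey), with list medians as black bars, the number of measured genes in brackets and a grey band for 1.5-fold. The median of the 10 genes is -0.50. The cell type medians are 0.77 for pan-neuronal markers, -0.12 for endothelial cells, -0.13 for satellite glia, -0.24 for Schwann cells and -0.54 for mural cells. Those of fibroblasts, macrophages and neutrophils are -1.001, -1.34 and -1.46.

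Markers of cell types had calls in both directions, to be read against the same 17.3% higher and 14.9% lower, and in such bulk samples fewer cells of a type and less RNA per cell cannot be told apart. Pan-neuronal markers were present, with Prph and Uchl1 at 8296 and 11466 counts in the control, and 13 of 22 were called higher and 0 lower, with a median log2 ratio of 0.77 and summed levels of 11173 CPM (control) and 17256 CPM (AEW). Fibroblast markers were called lower in 9 of 14 (16187 and 7987 CPM), macrophage markers in 17 of 18 (1018 and 388 CPM) and neutrophil markers in 11 of 12 (1667 and 546 CPM). Most of the fibroblast sum in the control came from Apod (5817 and 1995 CPM) and Dcn (5175 and 2210 CPM). The 5 fibroblast markers called neither included the collagens Col1a1, Col1a2 and Col3a1. Mural cell markers were called lower in 5 of 12 (479 and 314 CPM) and skeletal muscle markers in 9 of 15 (2498 and 1233 CPM). Satellite glia had 1 of 11 higher and 1 lower (10923 and 10137 CPM), Schwann cells 2 of 12 lower (20413 and 17513 CPM), endothelial cells 3 of 15 lower (399 and 346 CPM) and adipocytes 4 of 14 higher (450 and 521 CPM). Keratinocyte markers were called higher in 14 of 15 (552 and 1255 CPM, of which Cdh1, the member called neither, gave 512 and 430.2 CPM and the others 40.1 and 825 CPM), with Krt5 at 1 control and 1336 AEW counts and with Dsg1a, Dsc1 and Ivl at 0 in the control. The part of these cell types in the ratios of the glucocorticoid-induced genes was not tested.

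Scaling on the pan-neuronal markers lowered each log2 ratio by 0.77, so that ratios between 1 and 1.71 turned below 1. This shift was the median of 22 markers that differed widely, with log2 ratios from -0.22 (Map2) to 1.73 (Rbfox3). Of these markers 13 were called higher and 9 neither, so the scale is not a firm neuronal reference. On that scale 9 of the 10 genes were called lower and 0 higher, beside 58.1% of all measured genes lower and 3.69% higher. Ddit4 then had a log2 ratio of -0.71 and Pdk4, the gene that stayed neither, of -0.48. The point ratios of both thus fell below 1, but their intervals under TMM scaling had included 1, so neither had a clear direction there. The distance between the median of the 10 genes and that of all measured genes was -0.53 on the log2 scale. It is the same under each scaling of the same counts by construction, since a scaling shifts every log2 ratio equally. Under the GC corrections for whole transcripts and for the last 500 bases the distance was -0.616 and -0.620, and with the thinned AEW library -0.530.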

How the data were processed

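Libraries were made with a Lexogen QuantSeq kit from 500 ng of Trizol-extracted total RNA, per the labels' protocols. Bowtie2, bedtools and build mm10 are named in the submitters' processing notes. Tool versions, the annotation, and the treatment of strand, duplicates and reads with several matches were not given in the sources used here. The authors deposited raw counts of reads for each gene symbol, which sum to 9333882 (control) and 14376228 (AEW). No molecular identifiers are recorded, so intervals and the floor of 3 counts for a count of 0 cover counting error only.

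TMM factors of 0.970 and 1.03 for the library sizes came from edgeR 4.0.16 (R 4.3.3). Ratios have exact 95% conditional binomial (Clopper-Pearson) intervals, and a pair of genes was compared by the exact conditional interval of the ratio of their ratios. Since each group is 1 library, nothing was tested across animals and no p-value is given. A total of 79 rows with repeated symbols stayed in the totals and out of calls. Calling was tested on simulated data with known fold changes. The simulation held counting error only, and its changed genes had high counts and larger folds than the members called here. It therefore does not bear on differences between animals, pools or library preparations. The 10 genes, the other 22 lists and the settings were chosen with earlier results of these data known. All 10 genes, their listed relatives, the receptors and hormone enzymes are named. Of each other list except the cell type markers, up to 2 called genes per direction are named, those with the most extreme interval bounds. Some genes were named outside this rule, among them Per1, Dusp1, Nfkbia, Mmp9, Il6, Tnf, Ptgs2 and Nos2. The cell type markers named in the text were not chosen by it. Coordinates are from GENCODE M21 and 1-based. The list symbol Cavin2 was matched to its older symbol Sdpr.

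Alternatives were DESeq2 1.42.0 size factors, total counts, upper quartile, scaling on pan-neuronal markers, a summed count of at least 1 or of at least 100, a thinned AEW library, an interval beyond 1.5-fold, a limit of 3 scaled deviations from 500 neighbouring genes and, chosen after seeing the data, 2 GC corrections (statsmodels 0.14.6).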

Additional observations from a re-analysis of the deposited data

How the results depend on the processing

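No paired analysis was possible because each group is 1 library, so no replicate could be left out either. The number of glucocorticoid-induced genes called lower, 4, was 2 when the interval had to exclude 1.5-fold (Tsc22d3 and Mt1), 0 with the limit of 3 scaled deviations, when 10 were called neither, and 9 with pan-neuronal scaling, when 1 was called neither and their median log2 ratio was -1.27. It was 4 or 5 under the other settings, and the number called higher was 0 under each. Of the further glucocorticoid targets 1 was called higher, and 0 with a summed count of at least 100, with the interval beyond 1.5-fold, with the deviation limit and with pan-neuronal scaling. Of them 10 were called lower, against 1 with the deviation limit and 26 with pan-neuronal scaling, where the shares of all measured genes called lower were 14.9%, 0.646% and 58.1%. Over 70 log2 ratios of single members under other scalings and GC corrections, 50 stayed within the counting interval of the main value and 20 left it, and none of the 4 genes called lower above turned direction. Among genes called neither, Ddit4 changed sign under pan-neuronal scaling and both GC corrections, Pdk4 under pan-neuronal scaling and thinning, and Klf9 when GC was taken from transcript ends. Scaling on pan-neuronal markers moved the median of all measured genes by -0.77 and total counts by 0.09. Depth limits Pdk4, whose 12 and 24 counts fell out of the filter of 100.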
